A study of Mus musculus with 4 samples.

Results

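The genes that write, erase and read DNA methylation were examined for Eya1 occupancy in the embryonic mouse kidney. The list held 10 genes of 21951 protein-coding genes in the GENCODE M21 annotation of mm10. These were the DNA methyltransferases Dnmt1, Dnmt3a and Dnmt3b, the methylcytosine oxidases Tet1, Tet2 and Tet3, and the readers Uhrf1, Mbd1, Mbd2 and Mbd3. They were listed by name, with no measured value in the rule, but with earlier results of these data known. Occupancy was read from ChIP-seq peaks of Eya1, a transcriptional coactivator of nephron progenitors, in kidneys of E13.5 mice that carried a HA-FLAG knockin tag on Eya1 and no other stated change. Anti-FLAG beads were used for the pull-down and 80 kidneys went into each assay, so every list came from pooled whole organs and a peak cannot be assigned to a cell type. The series had 4 samples, of which 2 were Eya1 ChIP replicates, 1 was an IgG control and 1 was an input control, and all were E13.5 kidney. The Eya1 replicates were analysed here, and their peak lists hold positions alone, so that no height, score or depth stands behind any value below.

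Methylation of cytosine in CpG pairs is copied onto newly made DNA by Dnmt1, which Uhrf1 brings to sites where only the old strand is methylated. Dnmt3a and Dnmt3b place new methyl groups, and Tet enzymes oxidise them as a step towards their removal. Mbd proteins share a methyl-CpG binding domain, although mammalian Mbd3 hardly binds methylated DNA, and Mbd2 and Mbd3 are alternative subunits of the NuRD complex, which combines chromatin remodelling with histone deacetylation.

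The lists of the replicates differed in peak size. The median width was 1069 bp over all replicate 1 peaks and 188 bp over all replicate 2 peaks, although the lists were of similar length. A promoter peak was one that lay within 1 kb of any annotated transcription start site (TSS, called a start here). By this rule 4041 peaks of replicate 1 and 3545 peaks of replicate 2 were promoter peaks, with median widths of 1099 bp and 199 bp. Widths are therefore compared within a list, and values of both replicates are given side by side throughout.

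Promoter peaks were found at 7 of the 10 genes. Dnmt3a, Mbd2 and Mbd3 had peaks in both replicates. Dnmt3b, Tet2 and Tet3 had peaks in replicate 1 only, and Dnmt1 had a peak in replicate 2 only. Uhrf1, Tet1 and Mbd1 had a peak in neither list. In replicate 1, 6 of the 10 genes had a promoter peak, compared with 20.2% of all protein-coding genes. In replicate 2, 4 of the 10 had one, compared with 14.7% of all genes. A peak in either replicate was present at 23.5% of all genes and a peak in both at 11.5%.

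Genes with many starts or with CpG-rich starts carried Eya1 peaks more often than genes in general, and the 10 genes were of that kind. Each had 5 or more start positions (median 6.5, against 3 for all protein-coding genes), and each had at least 1 CpG-rich start, as did 47.9% of all protein-coding genes. A start was called CpG-rich when the window from 250 bp before to 50 bp after it had a GC content of at least 55% and a ratio of observed to expected CpG of at least 0.6. Of the genes with 5 or more start positions, 38.7% had a promoter peak in either replicate, and of the genes with a CpG-rich start, 42.3%. Of the 5788 genes with both properties, 47.3% had a peak in either replicate and 24.9% had a peak in both. Against these shares stand 7 and 3 of the 10 methylation genes. The difference was not tested, since the lists form 1 group with no control list and a count over 10 genes moves by 10 percentage points with each gene.

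**Figure D1:**
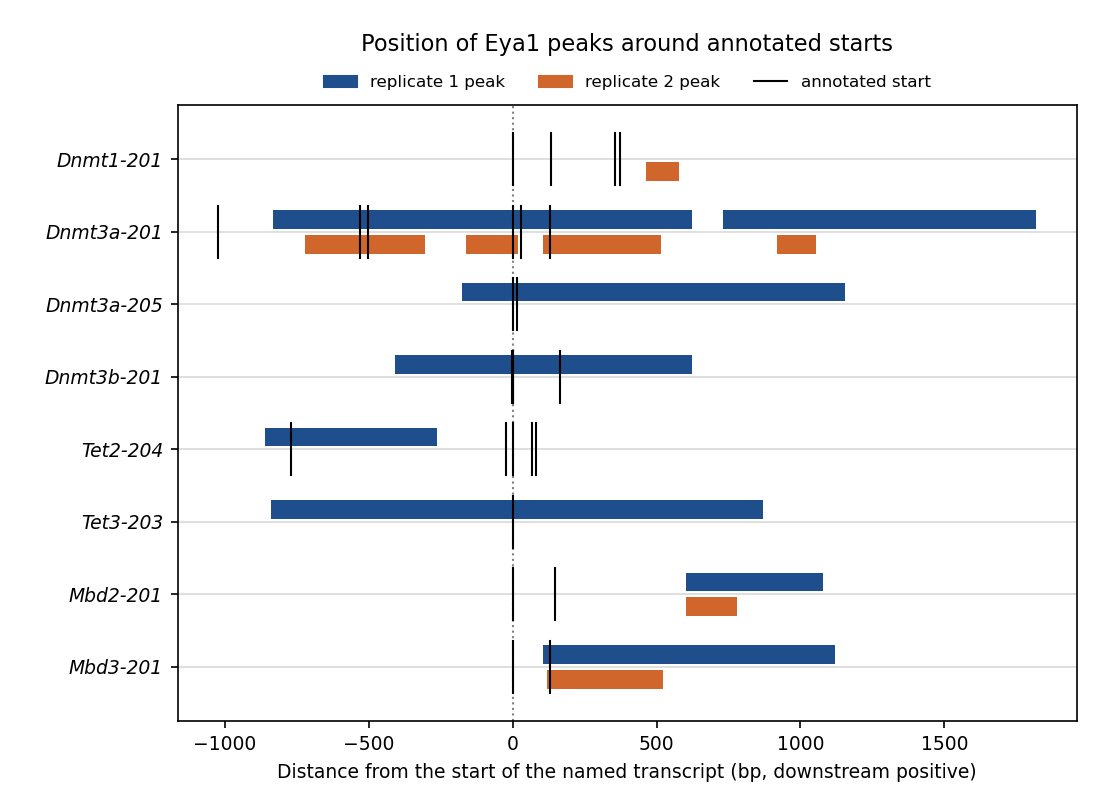
Position of each Eya1 peak relative to the start of the named transcript, which is at 0 bp, with transcription running to the right. Blue bars are replicate 1 peaks, orange bars are replicate 2 peaks and black ticks are annotated starts. The first row of Dnmt3a has 2 blue and 4 orange bars, and the peaks of Dnmt1 and Mbd2 lie downstream of all starts drawn for those genes.

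The sequences under and beside these peaks are printed here because the lists hold no signal and the sequence is the further property of a peak that can be read. All are in mm10, 5′ to 3′ on the strand of the gene, with each GC box in capitals. The GC box is the motif GGGCGG, read on either strand and known as a site for Sp1 family factors. The first pair is a replicate 2 peak of 183 bp at Dnmt3a (chr12:3806866-3807048), over the start of the full-length transcript, and a replicate 2 peak of 138 bp in its first intron (chr12:3807947-3808084). Both lay wholly inside replicate 1 peaks, and they held 6 and 2 GC boxes.
Dnmt3a peak of 183 bp: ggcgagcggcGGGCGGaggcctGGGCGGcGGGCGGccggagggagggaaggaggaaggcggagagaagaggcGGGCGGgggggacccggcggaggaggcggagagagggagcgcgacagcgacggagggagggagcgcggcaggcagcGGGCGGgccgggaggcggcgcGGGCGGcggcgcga
Dnmt3a peak of 138 bp: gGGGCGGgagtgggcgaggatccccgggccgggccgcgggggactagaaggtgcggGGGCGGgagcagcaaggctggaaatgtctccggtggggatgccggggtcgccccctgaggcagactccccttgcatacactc

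The next sequences are the 250 bp before a start that only replicate 1 covered. They belong to the internal start of Dnmt3a (chr12:3891478-3891727, 1 GC box), of which a replicate 1 peak covered 178 bp, and to Dnmt3b (chr2:153649204-153649453, 3 GC boxes) and Tet3 (chr6:83456393-83456642, 3 GC boxes), which were covered in full. The GC box of the Dnmt3a window lay before the covered stretch.
Dnmt3a-205 upstream: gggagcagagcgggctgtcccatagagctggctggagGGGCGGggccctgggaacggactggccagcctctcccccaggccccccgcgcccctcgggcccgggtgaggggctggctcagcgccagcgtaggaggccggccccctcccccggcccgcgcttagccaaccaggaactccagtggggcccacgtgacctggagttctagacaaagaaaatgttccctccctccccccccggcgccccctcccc
Dnmt3b-201 upstream: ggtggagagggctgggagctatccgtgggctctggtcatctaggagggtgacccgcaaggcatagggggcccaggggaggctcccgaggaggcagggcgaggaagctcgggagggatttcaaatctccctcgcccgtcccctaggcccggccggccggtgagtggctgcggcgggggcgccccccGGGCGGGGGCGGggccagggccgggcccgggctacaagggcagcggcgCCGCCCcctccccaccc
Tet3-203 upstream: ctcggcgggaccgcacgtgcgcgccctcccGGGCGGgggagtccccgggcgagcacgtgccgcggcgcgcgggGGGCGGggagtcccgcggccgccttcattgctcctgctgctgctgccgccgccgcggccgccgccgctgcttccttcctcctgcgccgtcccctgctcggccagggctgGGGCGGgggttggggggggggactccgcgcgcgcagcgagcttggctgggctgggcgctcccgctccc

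The last pair shows 250 bp before starts that no peak covered. The Tet2 window (chr3:133544369-133544618) is the stretch between the start of the full-length transcript and the replicate 1 peak further upstream. It had a GC content of 83.6%, 50 CpG pairs and 1 GC box, and a single word of 20 bp occurred 4 times in it. The Uhrf1 window (chr17:56303071-56303320) had a GC content of 57.6%, 10 CpG pairs and 1 GC box.
Tet2-204 upstream: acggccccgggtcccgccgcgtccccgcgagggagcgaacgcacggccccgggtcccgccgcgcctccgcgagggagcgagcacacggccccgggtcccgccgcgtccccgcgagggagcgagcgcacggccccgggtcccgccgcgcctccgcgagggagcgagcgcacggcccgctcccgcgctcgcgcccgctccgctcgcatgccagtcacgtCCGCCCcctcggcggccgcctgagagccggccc
Uhrf1-201 upstream: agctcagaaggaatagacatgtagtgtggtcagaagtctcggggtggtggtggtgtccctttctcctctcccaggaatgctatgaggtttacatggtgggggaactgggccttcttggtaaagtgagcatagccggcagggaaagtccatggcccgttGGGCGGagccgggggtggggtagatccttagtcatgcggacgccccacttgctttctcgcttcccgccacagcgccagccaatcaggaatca

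Such windows were taken at every start group that codes for at least 250 amino acids, for the 8 genes that do not lie on chromosome 18. There were 14 windows. Replicate 1 peaks touched 4 of them and all 4 held a GC box, although that of the Dnmt3a-205 window lay outside the peak. Of the 10 windows that neither replicate touched, 4 held a GC box. The difference was not tested, and 92.8% of all replicate 1 promoter peaks held a GC box. A GC box was present in 39% of 250-bp windows before the 5′ ends of all protein-coding genes. Those were 21951 windows, a single window per gene with no limit on coding length or CpG content, so they were chosen differently from the 14. A match is a property of the letters and does not measure the binding of any factor.

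Dnmt3a had the most peaks of the 10 genes. Its gene model (ENSMUSG00000020661.15, chr12:3806007-3914443, plus strand) spans 108 kb and has 18 start positions in 10 groups, where starts were grouped when they followed each other within 1 kb. In replicate 1, 3 promoter peaks were listed, with widths of 1457 bp, 1087 bp and 1334 bp. In replicate 2, 4 promoter peaks were listed, with widths of 416 bp, 183 bp, 409 bp and 138 bp. Of all protein-coding genes, only Dnmt3a and Egln1, which encodes an oxygen-sensing prolyl hydroxylase, had 3 or more promoter peaks in replicate 1. In replicate 2, 19 genes had 4 or more, Dnmt3a among them. More starts give more places for a promoter peak, and no count for genes with as many starts as Dnmt3a is given here. Egln1 was singled out after its values were seen, as were the neighbouring genes S1pr2, Ccar1, Fem1a and Cxxc1 named below.

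At the first group of Dnmt3a starts, which gives rise to the 908-residue protein, both replicates placed peaks over the same stretch. The replicate 1 peak at chr12:3806196-3807652 covered 5 of the 6 starts, and 3 of the replicate 2 peaks lay wholly within it. Together these 3 took up 1008 bp, or 69.2%, of the replicate 1 peak. The second replicate 1 peak (chr12:3807762-3808848) lay in the first intron with no start inside and held the fourth replicate 2 peak, whose 138 bp were 12.7% of its length. These replicate 1 widths stood at percentiles 74.9 and 49.1 of all promoter peaks in the list. Annotated sequence under the first peak was 1129 bp of intron, 262 bp of untranslated exon and 66 bp of other exon.

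The third replicate 1 peak of Dnmt3a (chr12:3891550-3892883) lay far inside the gene, over the starts of Dnmt3a-205 and Dnmt3a-203. This internal promoter gives the shorter protein of 689 residues. No replicate 2 peak was listed there. The peak was 1334 bp wide, at percentile 67.5 of replicate 1 promoter peaks, and covered 1201 bp of intron and 133 bp of untranslated exon. Its CpG ratio of 0.38 was the lowest of the replicate 1 peaks at the 10 genes, whereas the peak at the first start group had a ratio of 0.91. The other 8 start groups of Dnmt3a, each coding for at most 183 residues, had no peak in either replicate.

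Dnmt3b (ENSMUSG00000027478.15, chr2:153649450-153687730, plus strand), the second de novo methyltransferase, had a single replicate 1 peak of 1032 bp at chr2:153649045-153650076. It covered the group of 4 starts that includes those of Dnmt3b-201 and Dnmt3b-207, which code for 860 residues, with 405 bp lying before the gene model. The start of an antisense transcript, Dnmt3bos, also lay within 1 kb of the peak, and the lists hold no strand, so the peak cannot be given to 1 gene. No replicate 2 peak was listed there, and the nearest one was 72.3 kb away.

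Dnmt1 (ENSMUSG00000004099.16, chr9:20907209-20959888, minus strand), the maintenance methyltransferase, showed the reverse. Replicate 1 had no peak at any of its 4 start groups, and the nearest replicate 1 peak was 14.8 kb away, over the start of the neighbouring receptor gene S1pr2. Replicate 2 had a peak of 117 bp at chr9:20952400-20952516, which is the minimum width in that list and was shared by 246 of its peaks. The peak lay 89 bp downstream of the nearest start and 463 bp downstream of the start of Dnmt1-201, which codes for the full 1620 residues. All 117 bp belonged to an untranslated exon of Dnmt1-203 and Dnmt1-207. The peak held no CpG pair. Of 3545 replicate 2 promoter peaks, 4 had none (0.113%), and among the 213 promoter peaks of minimum width it was the only one. At the farther upstream start at position 20959888, no peak was listed in either replicate. The study itself reports Eya1 and Six2 together at the Dnmt1 promoter. It also counts Dnmt1 among Eya1-bound genes with lower expression after Eya1 deletion. Its peaks were those common to calls against input and IgG, and need not match the lists read here.

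Of the Tet enzymes, Tet2 and Tet3 had replicate 1 peaks and Tet1 had none. The Tet3 peak (chr6:83455523-83457232) was 1710 bp wide, at percentile 83.9 of replicate 1 promoter peaks and the widest at the 10 genes. It was nearly centred on the start of Tet3-203, which codes for 1803 residues, with its midpoint 14.5 bp downstream. The start groups of Tet3-204 and of Tet3-202, which codes for 1668 residues, had no peak. Tet3 (ENSMUSG00000034832.15) lies on the minus strand at chr6:83362373-83459084, and its nearest replicate 2 peak was 115 kb away.

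The Tet2 peak (ENSMUSG00000040943.12, chr3:133463679-133545139, minus strand) was narrower. It spanned chr3:133544632-133545231, a width of 600 bp at percentile 9.77 of its list. It covered the most upstream start, of Tet2-205, and ended 264 bp before the start of Tet2-204, which codes for the full 1920 residues. A start of the antisense transcript Gm42567 lay within 1 kb, and again the peak cannot be given to 1 gene. The nearest replicate 2 peak was 1894 kb away. Tet1 (ENSMUSG00000047146.17, chr10:62804570-62908996, minus strand) has 7 start groups across 104 kb and none had a peak. The nearest peaks to it were 22.1 kb away in replicate 1 and 22.2 kb away in replicate 2, at widths of 1216 bp and 760 bp, and both lay over the start of Ccar1, so that both lists held a peak at the neighbouring gene and none at Tet1.

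Among the readers, Mbd3 and Mbd2 had overlapping peaks in both replicates. At Mbd3 (ENSMUSG00000035478.14, chr10:80392539-80399550, minus strand) the replicate 1 peak was 1016 bp wide (chr10:80398429-80399444) and the replicate 2 peak was 403 bp wide (chr10:80399029-80399431). The replicate 2 peak lay wholly within the replicate 1 peak, of which it took up 39.7%. Both covered the start of Mbd3-203 and lay 106 bp and 119 bp downstream of the start of Mbd3-201, which codes for 285 residues. The replicate 2 width stood at percentile 84.7 of its list and the replicate 1 width at percentile 42.8. Both peaks covered the same 110 bp of coding exon.

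At Mbd2 (ENSMUSG00000024513.16, chr18:70568189-70626131, plus strand) the peaks covered no start. They lay 456 bp downstream of the nearest start, of Mbd2-202, and 601 bp downstream of the start of Mbd2-201, which codes for 414 residues. The replicate 1 peak (chr18:70568790-70569268) was 479 bp wide, at percentile 4.45 of its list. The replicate 2 peak (chr18:70568790-70568967) was 178 bp wide, at percentile 41.2. Both began at the same base, which was so for 2 peaks of the whole lists. The replicate 2 peak was coding sequence of the first exon throughout and ended on the last base of that exon. In the whole replicate 2 list, 16 peaks ended on the last base of an annotated exon. The replicate 1 peak ran on for 301 bp into the intron.

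Uhrf1 and Mbd1 had no peak. The nearest peaks to Uhrf1 (ENSMUSG00000001228.14, chr17:56303321-56323486, plus strand) were 60.9 kb away in replicate 1 and 61.0 kb away in replicate 2, and Fem1a was the nearest protein-coding gene to both. The nearest to Mbd1 (ENSMUSG00000024561.10, chr18:74267605-74282732, plus strand) was 50.5 kb away in replicate 1, where a peak of 992 bp lay over the start of Cxxc1, which encodes a protein that binds unmethylated CpG. In replicate 2 the nearest peak was 332 kb away. With no input or IgG list and no depth, a gene without a peak was not called in these lists, which does not show that Eya1 was absent from it.

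All peaks in the bodies of the 10 genes were promoter peaks. The gene body held a peak at 6 genes in replicate 1 and at 4 genes in replicate 2, the same genes as for promoters, whereas 20.4% and 14.5% of all protein-coding genes had one. A gene body peak more than 1 kb from any start was found at 0 of the 10 genes in either replicate, and at 1.30% of all protein-coding genes. Of the 45 start groups of the 10 genes, 8 had a peak, and all 8 were among the 17 groups that code for at least 250 residues. Start groups of other genes were not counted, so this is not shown to be particular to the 10 genes.

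**Figure D2:**
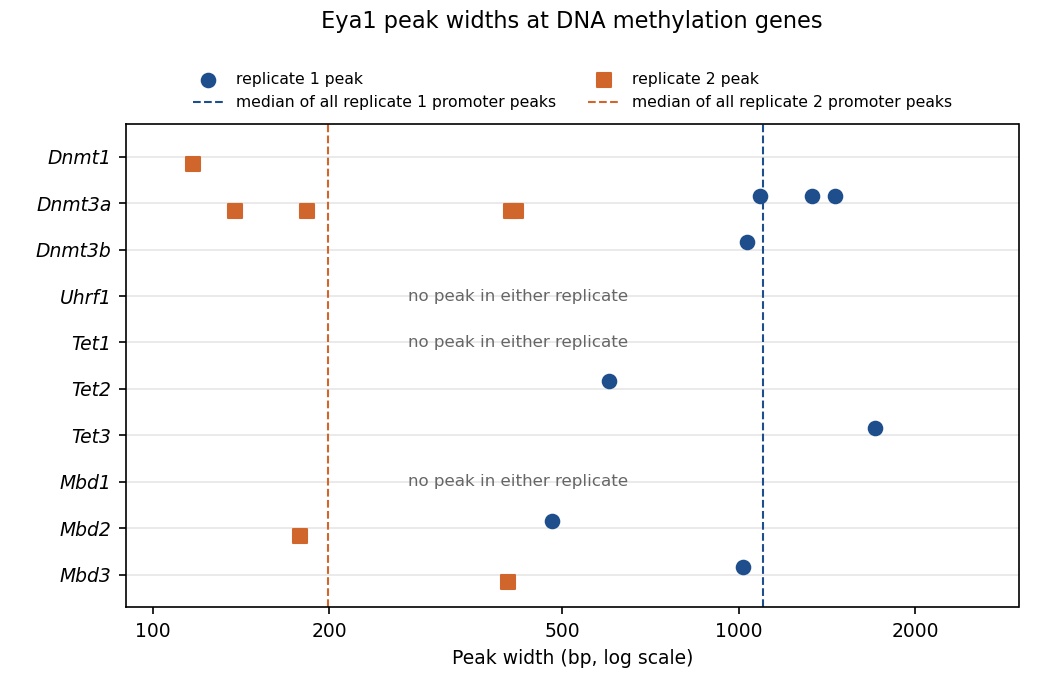
Width of each promoter peak at the 10 genes, on a log axis in bp. Circles are replicate 1 peaks, squares are replicate 2 peaks and the dashed lines mark the medians of all promoter peaks, 1099 bp and 199 bp. Peaks of the same gene differ in width between the replicates as the lists do, and Uhrf1, Tet1 and Mbd1 have no point.

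Widths of the peaks at the 10 genes lay on both sides of the promoter peak medians of their lists. In replicate 1 the 8 peaks ranged from 479 to 1710 bp with a median of 1059.5 bp, and 3 of them were wider than the median of that list's promoter peaks, 1099 bp. In replicate 2 the 7 peaks ranged from 117 to 416 bp with a median of 183 bp, and again 3 exceeded the median of promoter peaks, 199 bp. Across the 10 genes there were on average 0.75 ± 0.0707 promoter peaks per gene (SD over the 2 lists). Dnmt3a gave 3 of the 8 replicate 1 peaks and 4 of the 7 replicate 2 peaks. The SD compares list totals and does not show that the lists held the same genes. No mean over all protein-coding genes is given here. Of the replicate 1 peaks, 4 of 8 overlapped a replicate 2 peak, and of the replicate 2 peaks, 6 of 7 overlapped a replicate 1 peak. The exceptions were the Dnmt1 peak in replicate 2 and the peaks of Dnmt3b, Tet2, Tet3 and the internal Dnmt3a start in replicate 1. Dnmt3a gave 4 of the 6 overlapping replicate 2 peaks. The overlap over all peaks of the lists is not given here, so these counts are not shown to be particular to the 10 genes. By gene, 3 had promoter peaks in both lists, of 6 in replicate 1 and 4 in replicate 2. Over all protein-coding genes, 2520 had promoter peaks in both lists, of 4444 in replicate 1 and 3234 in replicate 2.

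In base composition the peaks were GC-rich, as promoter peaks of Eya1 were in general. The median GC content was 68.8% for the 8 replicate 1 peaks and 63.1% for all promoter peaks of that list. For the 7 replicate 2 peaks it was 76.2%, and 70.1% for that list. Of those 7 peaks, 4 were at Dnmt3a. The median CpG ratio, observed over expected, was 0.78 at the 10 genes and 0.78 in the list for replicate 1, and 0.77 and 0.85 for replicate 2. Single peaks spread over a wider range, also among the peaks of Dnmt3a. The highest ratio was 1.26 at the 183-bp peak of Dnmt3a, and the lowest were the Dnmt1 peak at 0 and the internal Dnmt3a peak at 0.38.

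**Figure D3:**
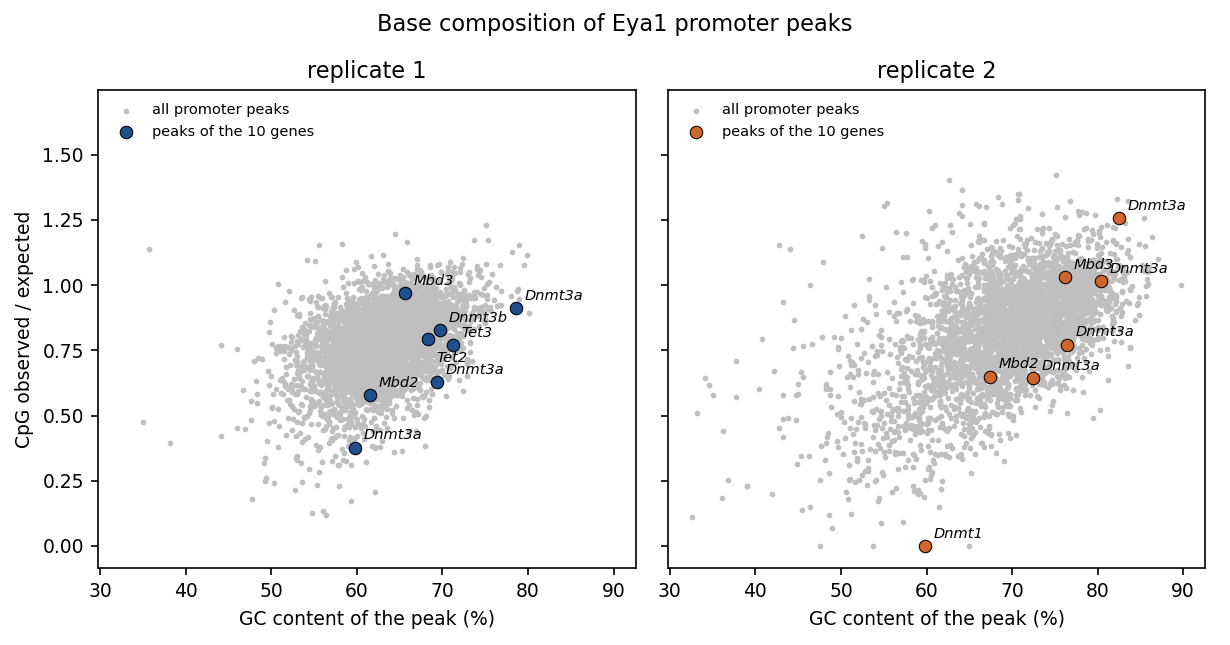
GC content (%) against the ratio of observed to expected CpG for every promoter peak, replicate 1 on the left and replicate 2 on the right. Grey points are all promoter peaks, and coloured points are the peaks of the 10 genes with the gene named. The Dnmt1 peak lies at a ratio of 0, and the replicate 1 peak over the first starts of Dnmt3a lies at the GC-rich edge of the cloud.

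Motifs in the peaks were counted on both strands, and a wide peak holds more matches by length alone, so each count is set beside its own list. The GC box was present in 7 of 8 replicate 1 peaks, compared with 92.8% of all promoter peaks of that list. It was present in 5 of 7 replicate 2 peaks, compared with 54.8%. Dnmt3a gave 4 of these 5 peaks and Mbd3 the other, so they do not stand for 5 genes. The peaks without one were the Mbd2 peaks of both replicates and the Dnmt1 peak. RE1, the element of 17 bp recognised by the repressor REST, was searched because the study relates Eya1 to REST, and up to 2 mismatches were allowed. It matched in 4 of 8 replicate 1 peaks, compared with 14.7% of all promoter peaks. These were the Dnmt3a peaks at the first and at the internal starts and the peaks of Tet2 and Tet3. The shares were 17.5% of promoter peaks at or above the median width and 11.8% of those below it. Of the 4 matching peaks, only the Tet2 peak (600 bp) was below that median. No replicate 2 peak of the 10 genes matched, compared with 7.02% of the list. With at most 1 mismatch, no peak of the 10 genes matched in either replicate, and 2.77% and 3.58% of the lists did. Each match at these genes therefore had 2 mismatches, and none lay in a replicate 2 peak.

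The E-box CACGTG, a site of Myc family and other basic helix-loop-helix factors, was present in 3 of 8 replicate 1 peaks, at Dnmt3a, Tet2 and Tet3, and in 22.9% of the list. It can be read in the printed windows of Dnmt3a-205 and Tet3-203. The CCAAT box was present in 2 of 8 replicate 1 peaks and in 62.5% of the list. The ETS motif CCGGAAG was present in 2 of 8, at Dnmt3a and Mbd2, and in 31.3% of the list. The NRF1 motif GCGCATGCG matched only at Mbd3 (5.2% of the list) and the E2F motif TTTNGCGC only at Tet2 (6.93%). In replicate 2, apart from the GC box, 1 of 7 peaks held any motif of the panel, an ETS match at Dnmt3a. These motifs were scarce in the replicate 2 list as well, where ETS matched 6.6% of promoter peaks, the CCAAT box 10.8%, the E-box 2.76%, YY1 2.68%, E2F 1.24% and the TATA box 1.04%. The SIX2, YY1 (GCCATNTTG), cyclic AMP response (TGACGTCA) and TATA box (TATAAA) motifs matched no peak of the 10 genes. In the replicate 1 list they matched 0.47%, 13.3%, 5.2% and 14.3% of promoter peaks.

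Proteins that work with these enzymes were counted in 4 further lists with 43 genes, chosen with earlier results of these data known. The lists differed from each other. All 12 NuRD subunit genes on the list had a promoter peak in both replicates, as did Mbd2 and Mbd3. The shares were 11.5% of all protein-coding genes and 24.9% of those with many and CpG-rich starts. The difference was not tested, and the choice of the list was not blind to these data. The 12 genes included the remodelling ATPases Chd3 (1794 bp in replicate 1 and 382 bp in replicate 2) and Chd4 (2715 bp and 677 bp). The scaffold gene Gatad2a (widest peaks 1098 bp and 247 bp) and the small subunit gene Cdk2ap1 (2524 bp and 346 bp) were among them too. The list did not hold the paralogue Chd5, named here after its values were seen, which had no peak in either replicate. Of the 12 genes, 9 had 5 or more start positions and a CpG-rich start.

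**Figure D4:**
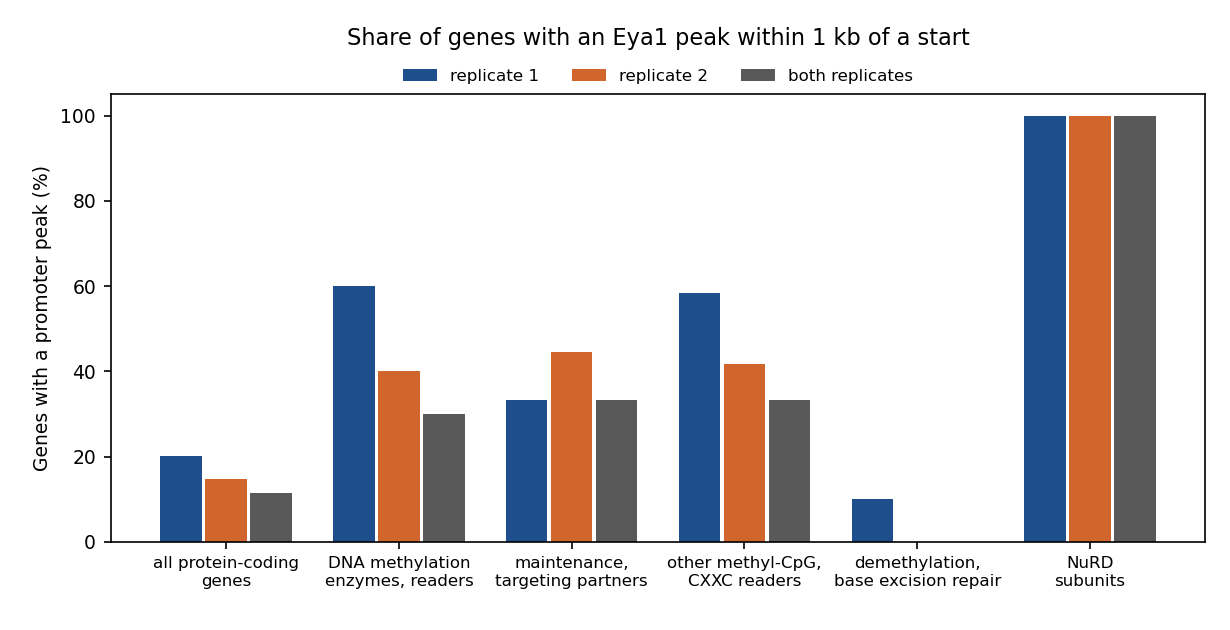
Share of genes (%) with an Eya1 peak within 1 kb of a start, for all protein-coding genes, the 10 methylation genes and the 4 further lists. Bars give replicate 1, replicate 2 and both replicates, and carry no error since each is a count over the genes of a list. NuRD subunits stand at 12 of 12 in each bar, and the demethylation and repair genes have 1 of 10 in replicate 1 and 0 in replicate 2.

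Among 9 partners of maintenance and targeting, 3 had peaks in both replicates, against 11.5% of all protein-coding genes and 24.9% of those with many and CpG-rich starts, to which 7 of the 9 belonged. The 3 were Cdca7, which activates the remodeller Hells (1316 bp and 146 bp), the Uhrf1 paralogue Uhrf2 (943 bp and 674 bp) and Usp7, a deubiquitinase that binds Dnmt1 and Uhrf1 (1105 bp and 330 bp). Trim28, a corepressor of zinc finger proteins named here after its values were seen, had a replicate 2 peak only (widest 246 bp). The other 5 had none. Thus the paralogue Uhrf2 had a peak in both lists, and Uhrf1 had none.

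Of 12 other genes, listed by family as readers of methylated or unmethylated CpG, 8 had a peak in at least 1 replicate and 4 had one in both. Membership of a family does not show that each protein binds CpG. The shares were 23.5% and 11.5% of all protein-coding genes, and 47.3% and 24.9% of those with many and CpG-rich starts. Of the 12 genes, 11 belonged to the latter. Those with a peak in both were Cxxc5 (2747 bp and 430 bp) and Kdm2a (2771 bp and 249 bp), whose CXXC domains bind unmethylated CpG, the Mbd family member Mbd5 (2075 bp and 422 bp) and the zinc finger reader Zbtb38 (818 bp and 405 bp). Another 3, named after their values were seen, had peaks in replicate 1 only, which were Mbd4 (995 bp), Cxxc1 (992 bp) and Cxxc4 (1241 bp). Kdm2b had peaks in replicate 2 only, of which the widest was 159 bp.

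Of 10 genes for active demethylation and base excision repair, 9 had no peak in either replicate and 1 had a peak, against 23.5% of all protein-coding genes. The exception was the repair scaffold Xrcc1, also named after its value was seen, with a replicate 1 peak of 1063 bp. Only 3 of these 10 genes had 5 or more start positions and a CpG-rich start, against 10 of 10 methylation genes, and the part of this in the count was not tested. Over the 4 lists, 23 of 43 genes had a promoter peak in replicate 1, 21 in replicate 2 and 19 in both, against 20.2%, 14.7% and 11.5% of all protein-coding genes. NuRD subunits made up 12 of the 19.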

How the data were processed

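Eya1 ChIP-seq lists from both Eya1 replicates were used. According to the methods of the study, reads were aligned to mm10 with Bowtie and MACS called peaks over input or IgG with more than 1 P value cutoff. The submitters' processing notes also name HISAT2. The authors deposited, for each replicate, a list of chromosome, start and end in bp, with no read count, score or p-value. Which cutoff and control made each list was not given in the sources used here, the depth behind the peaks is unknown, and the control samples (input, IgG) were not used here.

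Intervals were printed 1-based and were set against every start of GENCODE M21. The count of genes with a promoter peak was checked with bedtools 2.31.1. Computation used Python 3.11.15 with numpy 2.4.6 and pysam 0.24.0, and the rules for peaks and motifs were tested on simulated data. Sequences came from the GRCm38.p6 genome of RefSeq. No test was run, because the lists form 1 group. Nothing in the sources says whether the replicates came from separate pools of embryos.

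The 10 genes, the lists and the motifs were chosen with earlier results of these data known. Genes of the further lists were named when both replicates had a peak, up to 4 for each list in alphabetical order, and genes with an annotated start within 1 kb of a peak of the 10 genes were named too. Alternatives covered the distance, the set of starts, the peak midpoint, merged peaks, motif mismatches, a 200-bp window on the midpoint and leaving out each replicate. The background of genes with many or CpG-rich starts and those of wide and narrow peaks for RE1 were added after the data were seen.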

Additional observations from a re-analysis of the deposited data

How the results depend on the processing

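Leaving out replicates aside, 17 of 22 recomputed values stayed close to the value reported, within 1.5 times for counts of genes or peaks and within 1 SD over the replicates for the other measures. With 2 replicates, leaving 1 out always falls within that SD and says nothing of stability. For the median width the SD, 620 bp, was nearly as large as the mean, 621 bp. Staying within it says little of stability there either. The number of genes with a promoter peak, 7 of 10, was 3 when a peak in both replicates was required, and 4 to 6 when 1 replicate was left out. It was 7 at 500 bp, at 2500 bp, with basic protein-coding transcripts and with peak midpoints, and 5 with the gene's 5′ end alone, where Tet3 and Dnmt1 were lost. Genes with a gene body peak numbered 7, 0 beyond 1 kb from any start, and 4 to 6 without 1 replicate. In the central 200 bp of peaks the share with a GC box was 60.7%, against 79.5% ± 11.4 (SD, n = 2) in whole peaks and 71.4 to 87.5% without 1 replicate. With the same window the median CpG ratio was 0.828, against 0.777 ± 0.00701 (SD, n = 2) in whole peaks and 0.772 to 0.782 without 1 replicate. Peaks with an RE1 match numbered 4, 6 with 3 mismatches allowed, 0 with 1 mismatch, 4 without replicate 2 and 0 without replicate 1. Other genes of the pathway with a peak numbered 25, and 19 to 26 under the alternatives. The mean of the median widths, 621 bp, was 183 and 1059.5 bp in the replicates alone, so it describes neither list.

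No paired analysis was possible because only the Eya1 group had peak lists that were analysed. The unknown depth and cutoff of each list limit every statement on a missing peak.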
